A study of Mus musculus with 8 samples.

Results

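Cholesterol synthesis and its control by the transcription factor SREBP2 were described through 30 genes, listed by name and kept because each symbol stood in all 8 count files, out of 24421 symbols in all. Of these genes, 20 encode enzymes of the route from acetyl-CoA to cholesterol, counting Ggps1, which branches off at the prenyl diphosphates. With 0610007P14Rik (Erg28), which encodes a scaffold protein of the sterol C-4 demethylation complex, these 21 are called synthesis genes here. A further 6 genes encode SREBP2 and the proteins that hold back or cleave it, and the last 3 encode the sterol carrier Stard4, the sterol-responsive membrane protein Tmem97 and the acetoacetate-activating enzyme Aacs. All 30 were among the 13821 genes that passed the filter on low counts.

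RNA was sequenced from primary mouse macrophages of 3 groups, all from mice on a normal diet: wild type (WT, 3 libraries), LysM-DKO (3 libraries) and ABCG1KO (2 libraries). No sample label uses the name Epsin-DKO, which the series' design text gives, so LysM-DKO and Epsin-DKO were read as 1 group. LysM is the lysozyme gene Lyz2, whose promoter is widely used to drive Cre recombinase in myeloid cells, and epsins are endocytic adaptor proteins. ABCG1 is a membrane transporter for cholesterol export to lipoproteins. The labels give no strain, age, sex or tissue of origin, and do not say whether libraries came from separate mice, so p-values measure only the spread between these libraries. The 3 comparisons share libraries, including the WT controls of both knockouts, so their results are set side by side and are not independent of each other.

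Cells make cholesterol from acetyl-CoA through mevalonate, the prenyl diphosphates, squalene and lanosterol. When sterol in the endoplasmic reticulum is low, Scap escorts SREBP2 to the Golgi apparatus, the proteases encoded by Mbtps1 and Mbtps2 release its active part, and that part switches on most genes of the route. When sterol is ample, Insig1 and Insig2 hold Scap and SREBP2 back. Insig1 is itself an SREBP2 target. In macrophages, which take up lipoprotein cholesterol, this loop is set against sterol export by transporters such as ABCG1.

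Libraries held between 29567615 and 41888516 counts in genes. Levels are CPM, which scale counts to a common library size, here corrected with TMM factors, and errors beside them are SD over the libraries of a group. Abcg1 stood at 405, 404 and 345 CPM in WT and at 60.4 and 73.4 CPM in the libraries labelled ABCG1KO, a log2 fold change of -2.52 (SE 0.37; edgeR quasi-likelihood adjusted p = 0.00414). Epn1 stood at 229.7, 203 and 191 CPM in WT and at 169, 183 and 155 CPM in the libraries labelled LysM-DKO (adjusted p = 0.430). Epn2 was at 4.97 to 8.86 CPM in WT and 5.67 to 13.2 CPM in LysM-DKO (adjusted p = 0.852), so neither epsin gene's count separated the LysM-DKO group at the threshold, and which exons were deleted is not given in the sources used here. Lyz2 stood at 13004, 15147 and 15710 CPM in WT, against 6177, 8105 and 6266 CPM in LysM-DKO, while the ABCG1KO libraries held 14412 and 11237 CPM. Its LysM-DKO values lay below all WT values (log2 -1.09, SE 0.20, adjusted p = 0.173), and 15.4% of its sequence is shared with other loci. The 7 macrophage markers summed to 5039 to 5540 CPM in WT, 4815 to 5381 CPM in LysM-DKO and 7154 to 7832 CPM in ABCG1KO. Single markers differed in direction there: Adgre1, Csf1r and Cd14 were called higher in ABCG1KO than in WT (log2 1.21, 1.19 and 1.87), Cd68 was called lower (log2 -1.06), and 3 were not called. Over all genes tested, 7.21% were called higher and 8.83% lower in that comparison. Xist RNA, made from the inactive X chromosome of females, was at 79.1 to 200.3 CPM in WT, at 265 and 254 CPM in LysM-DKO 2 and 3, at 0.0485 CPM in LysM-DKO 1 and at 0 in both ABCG1KO libraries. Ddx3y, on the Y chromosome, reached 81.6 CPM in LysM-DKO 1, 94.8 and 92.6 CPM in ABCG1KO and at most 0.0487 CPM elsewhere. Sex and the ABCG1KO genotype therefore cannot be told apart. Nsdhl, Ebp and Mbtps2 lie on the X chromosome. Both ABCG1KO libraries also lay apart in reads in no gene (13.8% and 10.2%, against 4.26% to 6.07% in WT and LysM-DKO). The same held for reads at several loci (6.93% and 6.74%, against 2.65% to 3.01%) and in several genes (0.665% and 0.614%, against 0.873% to 0.980%). A difference in preparation or processing therefore cannot be told apart from the ABCG1KO genotype either.

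Upstream sequence of the listed genes was also described. RefSeq windows (GRCm38.p6, from 250 bases before to 50 bases after the start) were at hand for 26 of the 30 genes, all but Fdps, Fdft1, Sqle and Stard4, and a gene with several windows counted once. Genes driven by SREBP2 typically carry a sterol regulatory element close to boxes for the factors NF-Y and Sp1, so these motifs were searched on both strands. The sequences below are the stretches upstream of 5 starts that hold no annotated exon in GENCODE M21. They show the window with the longest match to the element (Hmgcs1), the gene of SREBP2 itself (Srebf2), the gene with the lowest level relative to WT in LysM-DKO (Mvd), an enzyme gene that fell in ABCG1KO (Lss) and the feedback gene of the loop (Insig1). Capitals mark matches to TCACNCCA, the shorter core of the sterol regulatory element, and to CCAAT, the NF-Y box, or their reverse complements. The stretches lie at chr13:119690101-119690350 (plus strand), chr15:82147019-82147180 (plus), chr8:122443423-122443672 (minus), chr10:76531355-76531587 (plus) and chr5:28071162-28071362 (plus), in that order.
Hmgcs1: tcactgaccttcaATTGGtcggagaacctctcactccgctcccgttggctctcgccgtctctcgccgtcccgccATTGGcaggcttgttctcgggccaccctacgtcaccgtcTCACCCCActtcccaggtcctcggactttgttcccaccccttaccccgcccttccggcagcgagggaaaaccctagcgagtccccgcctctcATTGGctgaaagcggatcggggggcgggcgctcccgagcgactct
Srebf2: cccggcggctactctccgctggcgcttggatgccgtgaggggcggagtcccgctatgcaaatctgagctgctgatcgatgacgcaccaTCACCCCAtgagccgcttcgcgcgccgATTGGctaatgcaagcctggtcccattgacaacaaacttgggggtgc
Mvd: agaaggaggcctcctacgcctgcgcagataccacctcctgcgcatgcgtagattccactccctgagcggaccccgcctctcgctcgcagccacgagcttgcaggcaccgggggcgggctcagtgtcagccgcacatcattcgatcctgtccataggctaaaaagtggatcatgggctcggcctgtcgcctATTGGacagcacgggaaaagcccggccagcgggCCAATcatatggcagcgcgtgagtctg
Lss: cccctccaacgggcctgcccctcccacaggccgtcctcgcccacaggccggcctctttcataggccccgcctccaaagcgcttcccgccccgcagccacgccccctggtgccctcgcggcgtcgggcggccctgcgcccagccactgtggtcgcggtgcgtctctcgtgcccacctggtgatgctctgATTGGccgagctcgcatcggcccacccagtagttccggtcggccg
Insig1: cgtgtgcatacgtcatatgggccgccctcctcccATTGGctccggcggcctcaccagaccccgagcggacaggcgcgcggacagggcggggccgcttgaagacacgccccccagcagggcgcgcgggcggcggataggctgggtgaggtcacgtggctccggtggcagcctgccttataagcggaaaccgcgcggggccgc

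CCAAT occurred in the windows of 16 of 18 synthesis genes and of 20 of all 26 listed genes (76.9%), against 41.058% of 27025 genes with a window. GGGCGG, the Sp1 box, occurred in 22 of the 26 (84.6%), against 38.202%. The 27025 genes were not limited to the 13821 tested here, and no share among tested genes was computed. Whether these boxes are more common in the listed genes than in other tested genes is therefore not known. TCACNCCAC, which contains TCACNCCA, occurred only in the Hmgcs1 window, 137 bases before the start, in 1 of 26 genes against 1.436% of genes. TCACNCCA occurred in 3 of 26 windows (11.5%, against 4.969%), those of Hmgcs1, Msmo1 and Srebf2. Msmo1, for the oxidase that removes the C-4 methyl groups, carried it 177 bases before the start, and Srebf2 162 bases before. A match describes letters in a window and is not a measured binding site.

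In the libraries labelled LysM-DKO, most synthesis genes stood below WT, and no listed gene passed the test. Relative to WT, 24 of the 30 had a log2 fold change below 0, against 47.5% of all genes tested, and the median was -0.33, against 0.02 for all genes tested. No listed gene was called at an adjusted p under 0.05 by edgeR's quasi-likelihood test, in a comparison that called 5 genes (0.0362%) over all 13821, with 0.0145% called lower and 0.0217% called higher. At an unadjusted p under 0.05, 10 of the 30 were lower, against 5.61% of all genes. DESeq2 called 1 of the 30, Mvd (adjusted p = 0.0488), where it called 301 genes in all. In simulated data for this comparison, the edgeR fit recovered 20.8% of genes changed 2-fold. Those genes were drawn at random from all genes tested, and recovery at the levels of the listed genes was not computed. In bulk RNA, fewer cells of a type and less RNA per cell cannot be told apart. The 5 B cell markers summed to 7.12, 30.3 and 2.51 CPM in WT and to 0.0242, 1.36 and 1.40 CPM in LysM-DKO, without overlap. All 5 had a log2 fold change below 0, 4 of them at an unadjusted p under 0.05 and 0 called, and their part in the result was not tested.

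**Figure D1:**
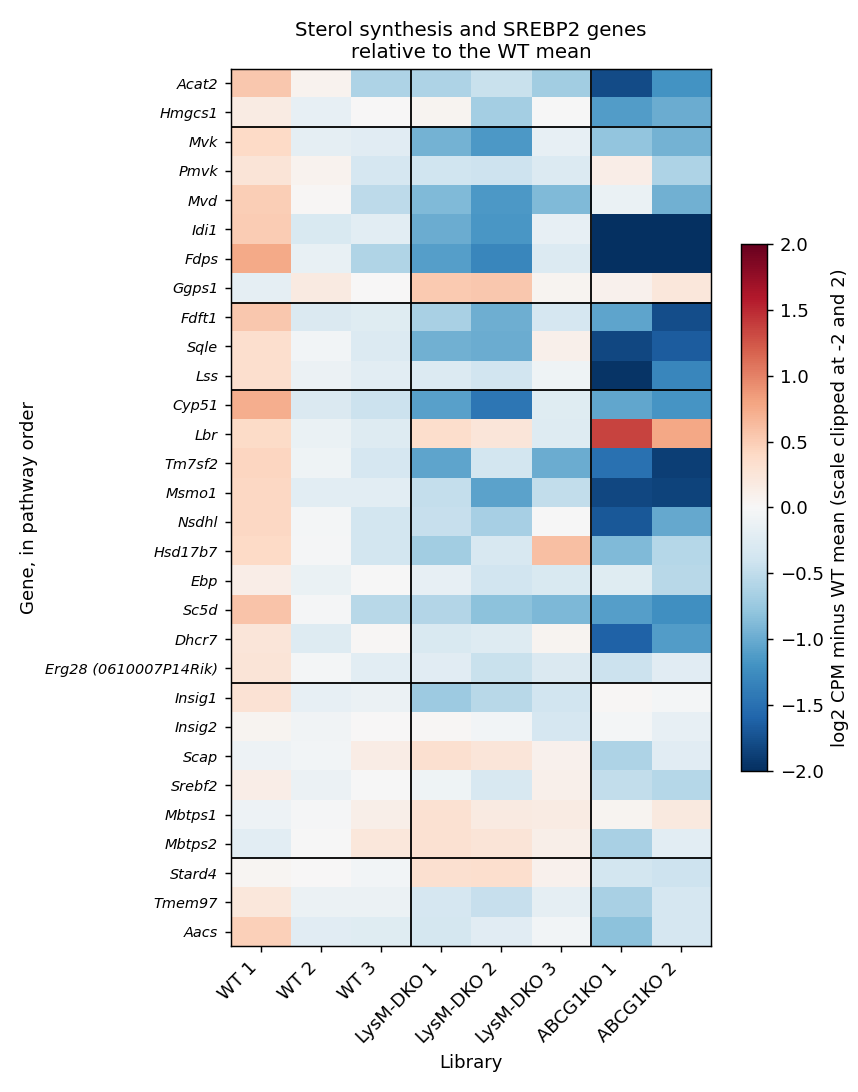
Level of each of the 30 genes in each of the 8 libraries, as log2 CPM minus the mean of the WT libraries, in pathway order from top to bottom. The synthesis genes are mostly below the WT mean in LysM-DKO and, apart from Lbr and a few others, further below it in ABCG1KO.

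The enzymes that turn mevalonate into prenyl diphosphates had the lowest median of any step in this comparison, -0.74 over 6 genes. Mvd, the decarboxylase that yields isopentenyl diphosphate, stood at 63.5, 45.6 and 31.4 CPM in WT and at 24.4, 20.2 and 24.5 CPM in LysM-DKO. All 3 LysM-DKO values lay below all WT values, and the fitted level was 49.2% of WT (log2 -1.02, SE 0.29, adjusted p = 0.342). Fdps, which makes farnesyl diphosphate, was at 148, 78.3 and 57.2 CPM in WT and at 40.8, 35.3 and 71.8 CPM in LysM-DKO. The groups overlapped through LysM-DKO 3, and the fitted level was 52.2% of WT (adjusted p = 0.420). Cyp51, which removes the 14-alpha methyl group of lanosterol, was at 149, 73.7 and 66.6 CPM in WT and at 42.5, 33.2 and 76.3 CPM in LysM-DKO, again with LysM-DKO 3 inside the WT range (52.6% of WT, adjusted p = 0.423). These 3 genes had the largest differences of the list.

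The 3 smallest differences were those of Hsd17b7, Srebf2 and Lbr. Hsd17b7, the 3-keto reductase of the C-4 demethylation steps, was at 17.7, 13.2 and 10.4 CPM in WT and at 8.31, 10.8 and 20.5 CPM in LysM-DKO (95.9% of WT, adjusted p = 0.960). LysM-DKO 3 was the highest and LysM-DKO 1 the lowest of these 6 values. Srebf2 was at 197, 166 and 179.9 CPM in WT and at 171, 145 and 194 CPM in LysM-DKO (93.8% of WT, adjusted p = 0.817). Lbr was at 24.2, 16.9 and 15.4 CPM in WT and at 23.6, 21.8 and 15.5 CPM in LysM-DKO (108% of WT, adjusted p = 0.879).

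Values of the 2 groups did not overlap for 9 genes that were lower in LysM-DKO (Mvd, Fdft1, Tm7sf2, Msmo1, Ebp, Sc5d, 0610007P14Rik, Insig1 and Tmem97), where 9.98% of all genes were lower in this way. They did not overlap for 2 that were higher, Mbtps1 and Stard4 (11% of all genes). Sc5d, the desaturase of the late steps, was at 109.6, 72.6 and 49.98 CPM in WT and at 48.8, 41.6 and 39.6 CPM in LysM-DKO, so that the lowest WT library and the highest LysM-DKO library nearly met. Insig1 was at 136, 98.7 and 102 CPM in WT and at 66.9, 75.6 and 84.9 CPM in LysM-DKO, 67.6% of WT (log2 -0.57, SE 0.16, adjusted p = 0.342). The size of the shift depended on WT 1, and without it the median over the 30 genes was -0.20, with 22 below 0. Without LysM-DKO 1, which leaves libraries with Xist and without Ddx3y in both groups, the median was -0.36, with 24 below 0.

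In ABCG1KO, synthesis genes fell along the whole route, most of all Fdps and Idi1, which share sequence with other loci, while the genes that control SREBP2 did not pass the test. Against WT, 12 of the 30 genes were called lower, where 8.83% of all genes tested were called lower, and 1 was called higher, where 7.21% were. The remaining 17 were not called. The median log2 fold change was -0.68 over the 30 genes and -1.24 over the 21 synthesis genes, against 0.01 over all genes tested. All 13 called genes were synthesis genes. In either direction, 16% of all genes were called in this comparison. The ABCG1KO values lay below all WT values for 23 of the 30 genes, against 24.2% of all genes, and above them for 1, against 23.9%.

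**Figure D2:**
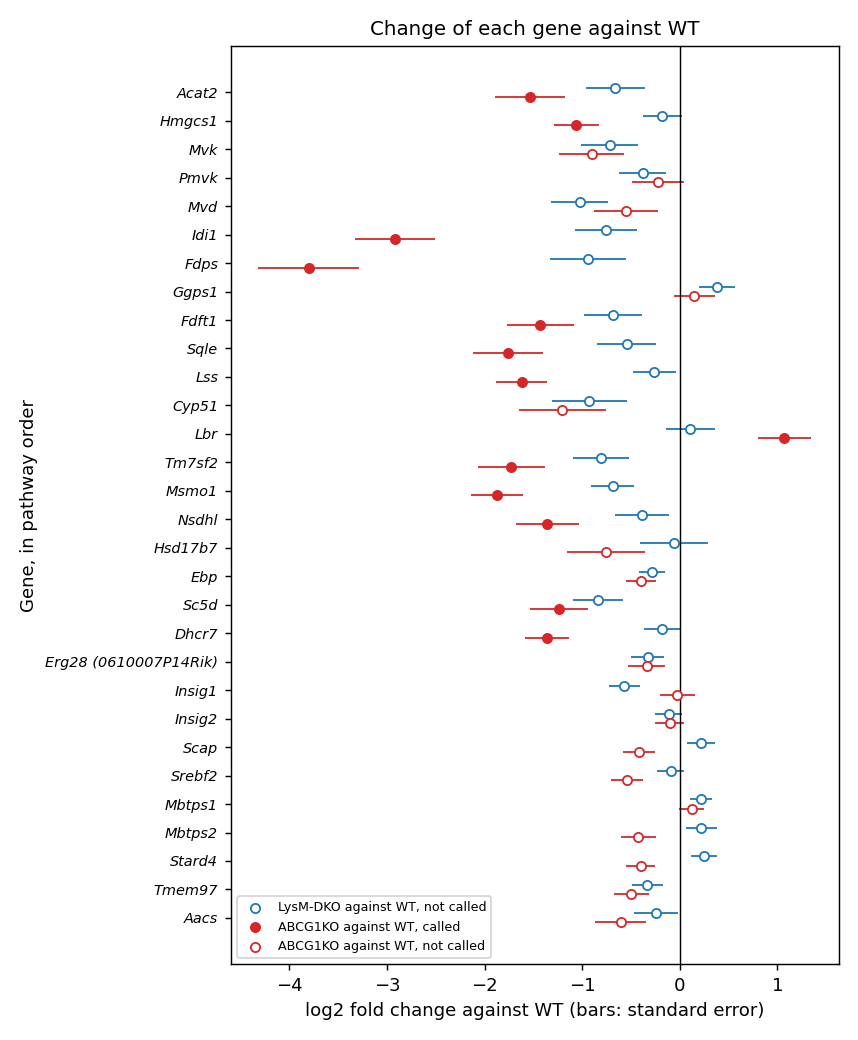
Log2 fold change of each gene in pathway order, with its SE, for LysM-DKO against WT and for ABCG1KO against WT. Filled points passed an adjusted p of 0.05, which 13 genes did in ABCG1KO and 0 in LysM-DKO.

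Both genes of the first steps fell. Acat2, the cytosolic acetoacetyl-CoA thiolase, was at 22.8, 16.4 and 10.2 CPM in WT and at 4.48 and 6.82 CPM in ABCG1KO (log2 -1.54, SE 0.36, adjusted p = 0.0246). Hmgcs1, the HMG-CoA synthase whose promoter is printed above, was at 213, 169 and 192 CPM in WT and at 88.1 and 95.1 CPM in ABCG1KO, 47.9% of WT (log2 -1.06, SE 0.23, adjusted p = 0.0198). For both genes the highest ABCG1KO value lay below the lowest WT value.

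In the step from mevalonate to prenyl diphosphates, 2 of 6 genes were called lower, and they fell furthest of the list. Fdps was at 7.62 and 5.97 CPM in ABCG1KO, against 57.2 to 148 CPM in WT, which is 7.18% of WT (log2 -3.80, SE 0.52, adjusted p = 0.00337). Idi1, the isomerase that acts just before it, was at 30.2, 17.3 and 18.3 CPM in WT and at 2.697 and 3.11 CPM in ABCG1KO, 13.3% of WT (log2 -2.91, SE 0.41, adjusted p = 0.00327). Their neighbours in the route stood apart from them. Mvk, the first kinase, was at 53.5% of WT (adjusted p = 0.103), Mvd at 68.3% (adjusted p = 0.289) and Pmvk at 85.9% (adjusted p = 0.617). Mvd differed between the ABCG1KO libraries, at 40.98 and 23.02 CPM. Ggps1, which makes geranylgeranyl diphosphate for protein prenylation and so leads away from sterols, was at 12.8 ± 1.59 CPM in WT (n = 3) and 13.5 and 14.95 CPM in ABCG1KO (adjusted p = 0.668).

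All 3 genes of the squalene and lanosterol steps fell. Fdft1, squalene synthase, was at 52.2, 29.5 and 30.3 CPM in WT and at 17.3 and 10.5 CPM in ABCG1KO (37.2% of WT, adjusted p = 0.0284). Sqle, the squalene epoxidase that is a control point of the pathway, was at 105, 80.4 and 68.7 CPM in WT and at 23.7 and 26.3 CPM in ABCG1KO (29.5% of WT, adjusted p = 0.0166). Lss, which closes the sterol rings, was at 41.8, 30.5 and 28.8 CPM in WT and at 8.47 and 13.4 CPM in ABCG1KO (32.5% of WT, adjusted p = 0.00567). The ABCG1KO libraries lay below every WT library for each of these 3 genes.

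Of the 10 genes that carry lanosterol to cholesterol, 5 were called lower and 1 was called higher. Msmo1 was at 211, 137 and 136 CPM in WT and at 44.4 and 43.9 CPM in ABCG1KO (27.4% of WT, log2 -1.87, SE 0.26, adjusted p = 0.00346). Nsdhl, which acts after Msmo1 in the removal of the C-4 methyl groups, was at 32.6, 23.7 and 18.9 CPM in WT and at 7.56 and 11.98 CPM in ABCG1KO (39.0% of WT, adjusted p = 0.0264). Sc5d stood at 34.2 and 31.4 CPM in ABCG1KO, against 49.98 to 109.6 CPM in WT (42.3% of WT, adjusted p = 0.0275). Dhcr7, the reductase of a last step, was at 80.2, 57.0 and 68.8 CPM in WT and at 22.04 and 31.4 CPM in ABCG1KO (39.0% of WT, adjusted p = 0.00632). Each of these 4 genes separated the groups without overlap. The other 4 of the 10, Cyp51, Hsd17b7, Ebp and 0610007P14Rik, were at 43.5% to 79.1% of WT and were not called. Their ABCG1KO values also lay below all WT values, by a very small margin for 0610007P14Rik.

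Tm7sf2 and Lbr encode 2 enzymes with the same activity, sterol C-14 reduction, and moved in opposite directions. Tm7sf2 was at 18.96, 13.3 and 11.1 CPM in WT and at 4.95 and 3.80 CPM in ABCG1KO (30.3% of WT, log2 -1.72, SE 0.34, adjusted p = 0.0139). Lbr, which is also a receptor of the inner nuclear membrane that binds lamin and chromatin, was at 47.4 and 31.8 CPM in ABCG1KO, above the WT range of 15.4 to 24.2 CPM (210% of WT, log2 1.07, SE 0.27, adjusted p = 0.0334). Without ABCG1KO 1 the Lbr difference was 0.74 and no longer passed, and it also missed the threshold in 4 of the other 16 alternatives.

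**Figure D3:**
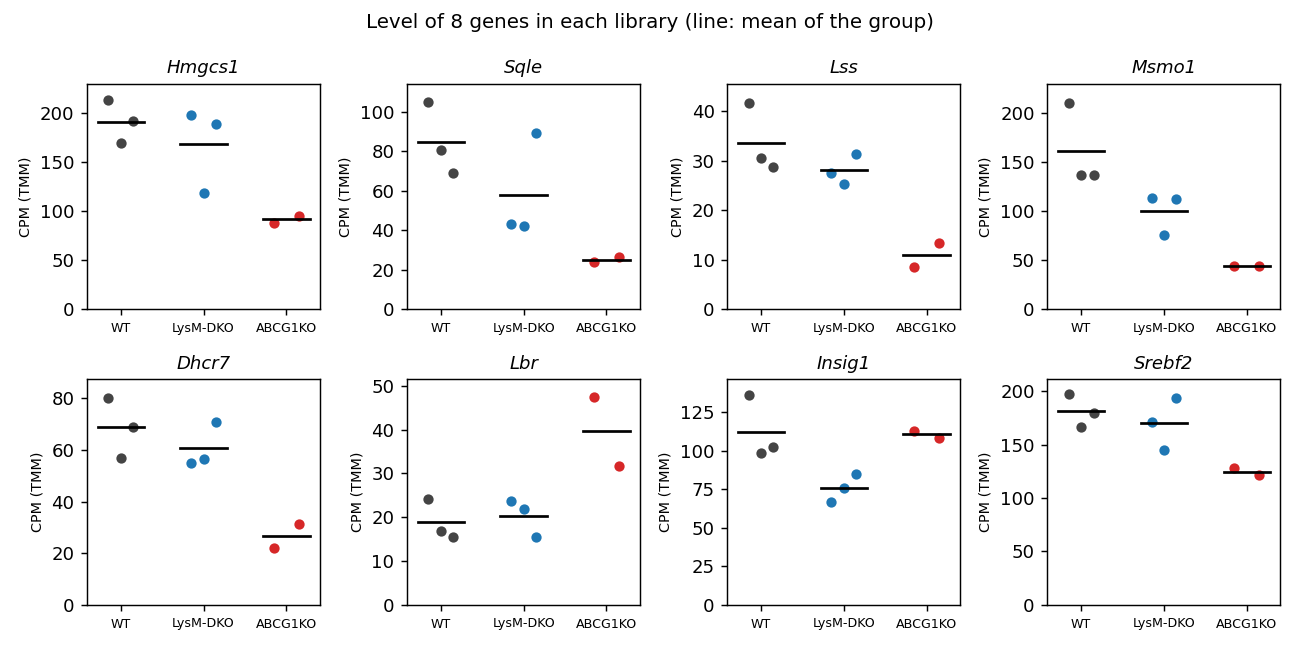
CPM (vertical axis) of 8 genes in every library, by group, with a point per library and the group mean as a line. Hmgcs1, Sqle, Lss, Msmo1 and Dhcr7 are lower in ABCG1KO than in any WT library, Lbr is higher (31.8 and 47.4 CPM against 15.4 to 24.2 CPM), and Insig1 lies inside the WT range there.

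None of the 6 genes that control SREBP2 was called against WT in ABCG1KO. Srebf2 was at 128 and 121 CPM, below all WT libraries (68.8% of WT, log2 -0.54, SE 0.16, adjusted p = 0.0553), and DESeq2 called it. Insig1 was at 112 and 108 CPM, inside the WT range of 98.7 to 136 CPM (98.4% of WT, adjusted p = 0.943). Insig2 was at 33.1, 30.3 and 31.8 CPM in WT, 32.3, 30.6 and 25.02 CPM in LysM-DKO and 30.8 and 28.3 CPM in ABCG1KO, and the 3 groups overlapped. Scap was at 66.9, 69.7 and 80.3 CPM in WT, 90.4, 85.6 and 76.7 CPM in LysM-DKO and 46.9 and 61.6 CPM in ABCG1KO. Mbtps2 had a like order, at 46.6, 53.5 and 62.7 CPM in WT, 66.7, 64.5 and 58.3 CPM in LysM-DKO and 34.5 and 46.4 CPM in ABCG1KO. Mbtps1 was at 66.3 to 77.8 CPM in WT, 80.3 to 88.4 CPM in LysM-DKO and 74.4 and 81.5 CPM in ABCG1KO. The last 3 genes, Stard4, Tmem97 and Aacs, were at 75.9%, 71.0% and 65.8% of WT in ABCG1KO, below all WT libraries and not called (adjusted p = 0.109, 0.100 and 0.154).

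The ABCG1KO group holds 2 libraries. Without either of them fewer genes were called, among the 30 and also over all genes tested. The median log2 fold change of the 30 genes was -0.82 without ABCG1KO 1 and -0.85 without ABCG1KO 2. Dhcr7, Fdps, Idi1, Lss and Msmo1 were called in every alternative that tested them, and the other 8 called genes were lost in at least 1. Monocyte markers were also higher in ABCG1KO, with 4 genes summing to 156 and 43.3 CPM against 1.53 to 10.99 CPM in WT and 2.62 to 4.10 CPM in LysM-DKO. The 5 mast cell markers summed to 32.2 and 6.84 CPM in ABCG1KO against 0.181 to 2.57 CPM in WT. The 5 fibroblast markers summed to 160.0 and 1185 CPM in ABCG1KO, 753 to 911 CPM in WT and 678 to 1662 CPM in LysM-DKO. No marker of these lists was at 0 in all libraries, and their part in the result was not tested.

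The 4 genes Fdps, Idi1, Acat2 and Fdft1 share sequence with other loci, and the share of reads aligned to several loci was higher in ABCG1KO (6.93% and 6.74%) than in WT (2.83% to 3.00%). The share of a gene's 50-base transcript stretches that also occur at another locus was 39.1% for Acat2 (mostly Acat3), 17.7% for Idi1, 15.5% for Fdps and 9.38% for Fdft1 (mostly processed pseudogenes). Tmem97 (20.8%) and Ggps1 (5.54%) also passed 5%. The differences of these genes are uncertain where counting may have split or dropped such reads. Among the 24 genes under 5% the test called 8 lower and 1 higher in ABCG1KO, and among the 20 under 1% it called 6 lower and 1 higher. Over all genes tested, whatever their shared sequence, 8.83% were called lower and 7.21% higher. The shares among all genes under 5% or under 1% are not given here. Exons of 7 genes overlap those of another coding gene. Among called genes, the overlap covered 26.7% of the exons of Fdps (Gm43738, same strand), 18.3% of Fdft1 (Ctsb, opposite strand), 12.1% of Tm7sf2 (Vps51, same strand) and 9.2% of Lbr (Dnah14, opposite strand). Mbtps2 (28.4%, Yy2), Ggps1 (5.4%, Arid4b) and Cyp51 (3.8%, Akap9) were the others, and the strand setting of the counting is not given in the sources used here.

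**Figure D4:**
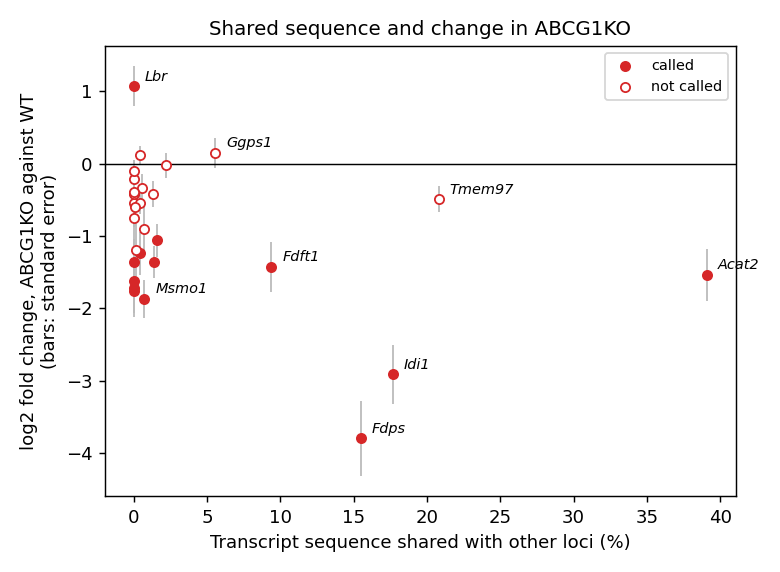
Log2 fold change of each gene in ABCG1KO against WT (vertical axis) by the percent of its 50-base transcript stretches that occur at another locus (horizontal axis). Fdps and Idi1 lie lowest, at 15.5% and 17.7%, and Msmo1, Sqle, Tm7sf2 and Lss lie between -1.62 and -1.87 with under 1% shared.

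Set directly against ABCG1KO, the libraries labelled LysM-DKO were higher for genes from the first to the last steps of the route. Of the 30 genes, 8 were called higher, where 7.76% of all genes tested were, and 0 were called lower, where 5.64% were (13.4% in either direction). At an unadjusted p under 0.05, 2 of the 30 were lower, against 14.2% of all genes. DESeq2 called 2 of the 30 lower, where it called 2982 genes in all in either direction. Its share called lower over all genes is not given here. Values did not overlap for 16 genes that were higher in LysM-DKO (25.6% of all genes) and for 2 that were lower (22.6%). The called genes were Fdps (log2 2.86, SE 0.49, adjusted p = 0.0104), Idi1 (2.16), Lss (1.36), Dhcr7 (1.18), Msmo1 (1.18), Hmgcs1 (0.88), Stard4 (0.65) and Scap (0.63). The median over the 30 genes was 0.54, against 0.03 over all genes tested. Stard4 measured 20.5, 20.1 and 19.3 CPM in WT, which lay between 25.03, 25.1 and 21.1 CPM in LysM-DKO and 15.4 and 14.9 CPM in ABCG1KO (adjusted p = 0.0288 between the knockouts).

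In the other direction, 5 of the 30 genes were lower in LysM-DKO than in ABCG1KO (Lbr, Insig1, Mvd, Pmvk and Insig2), and edgeR called none of them. Lbr stood furthest apart, at 51.4% of the ABCG1KO level without overlap (log2 -0.96, SE 0.27, adjusted p = 0.0519), and 6 of 17 alternatives called it, DESeq2 among them. Mvd was at 72.0% of the ABCG1KO level in LysM-DKO (log2 -0.47, SE 0.32, adjusted p = 0.352), and the groups overlapped. Insig1 was at 68.7% of it without overlap (log2 -0.54, SE 0.17, adjusted p = 0.0746), and DESeq2 called it. Pmvk was at 89.4% and Insig2 at 99.4%, with overlap. Without ABCG1KO 1 edgeR called fewer genes in this comparison, among the 30 and also over all genes tested, and the median over the 30 was 0.45. Without LysM-DKO 1 it called 4 of the 30 and 943 genes in all, against 1853 in all with every library.

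Across the 6 WT and LysM-DKO libraries, the synthesis genes moved together from library to library, also within a group. The median deviation of the 21 genes from their WT mean, in log2 CPM, was 0.40, -0.12 and -0.26 in WT 1 to 3 and -0.59, -0.67 and -0.25 in LysM-DKO 1 to 3. It was -1.10 and -1.11 in the ABCG1KO libraries. WT 1 had the highest WT level for 20 of the 21 genes and the highest of all 6 libraries for 19. LysM-DKO 2 had the lowest level of its group for 14 of the 21 and LysM-DKO 3 the highest for 12, and LysM-DKO 3 had nearly the same median as WT 3.

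**Figure D5:**
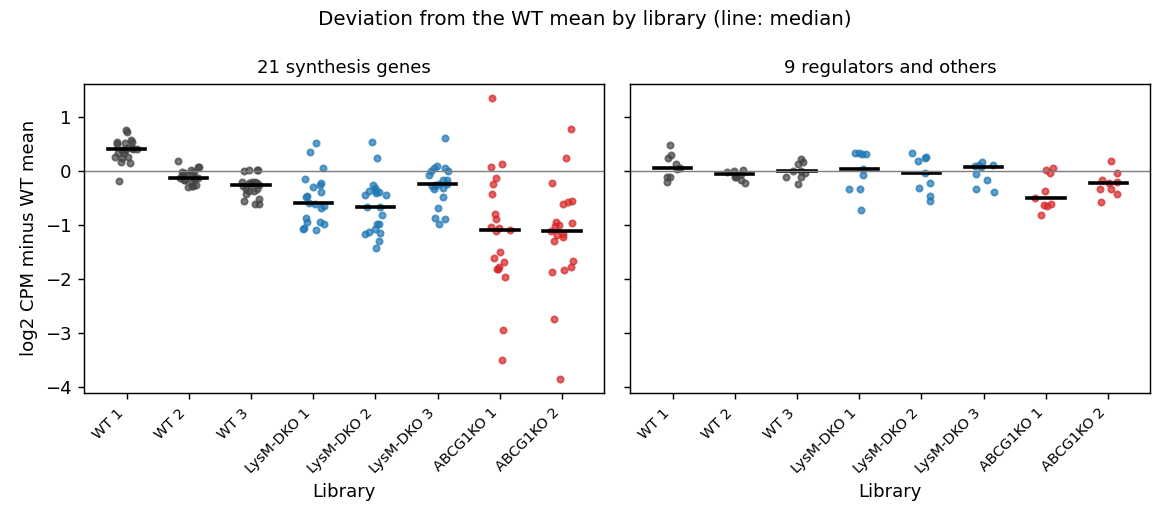
Deviation of each gene from its WT mean (log2 CPM) in each library, for the 21 synthesis genes and the 9 other genes, with a point per gene and the median as a line. The synthesis medians run from 0.40 in WT 1 to -0.67 in LysM-DKO 2, with LysM-DKO 3 at -0.25 beside WT 3 at -0.26, and both ABCG1KO libraries near -1.1.

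As a description over 6 points, 18 of the 30 genes (60.0%) had a Pearson r of at least 0.8 with the mean of the others, where 7.73% of other tested genes did, and the median r was 0.86 against -0.05. The points share library, depth and scaling, and WT 1 has a large part in them. Without it 12 of 30 passed the same r over 5 libraries, for which no share of other genes was computed. With values centred on their group's mean, which removes the difference between groups, 14 of 30 passed (46.7%, against 8.15% of other genes). Tmem97 (0.987), Fdft1 (0.982) and Fdps (0.981) followed the mean most closely, and Insig1 had an r of 0.916. Lbr (0.067) and Insig2 (0.195) did not follow it. Mbtps2 (-0.949), Scap (-0.891), Ggps1 (-0.886), Mbtps1 (-0.875) and Stard4 (-0.672) ran against it. An r below 0 was common over all genes, since the median r of other tested genes was -0.05. The share of other genes with an r as strongly negative as these was not computed.

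A list of 20 cell cycle genes was likewise highest in WT 1 and in LysM-DKO 3 within their groups, summing to 457, 305 and 194 CPM in WT 1 to 3 and to 171, 181 and 353 CPM in LysM-DKO 1 to 3, and its part in the pattern was not tested. In ABCG1KO the cell cycle list summed to 290.0 and 560.2 CPM. Among genes with a mean of at least 10 CPM, 5 outside the sterol list followed the mean of that list most closely over the 6 libraries. They were Hsd17b10 (r = 0.995), Asah1 (0.993), Cox5a (0.993), Swi5 (0.991) and Copz1 (0.991). Hsd17b10, a mitochondrial dehydrogenase, measured 54.9, 40.5 and 37.2 CPM in WT and 31.6, 28.4 and 38.3 CPM in LysM-DKO. Its ABCG1KO values of 39.8 and 43.8 CPM lay inside the WT range.

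Other genes around the pathway were counted from lists. Of 11 further SREBP2 targets and sterol enzymes, 5 were called lower and 0 higher in ABCG1KO against WT, where 8.83% of all genes tested were called lower and 7.21% higher. In LysM-DKO against WT edgeR called 0 of them, where it called 0.0362% of all genes. At an unadjusted p under 0.05, 3 of the 11 were lower there, against 5.61% of all genes. Among the 11, Fads1, a fatty acid desaturase, was at 143, 123 and 112 CPM in WT and at 61.5 and 86.4 CPM in ABCG1KO (log2 -0.77, SE 0.18, adjusted p = 0.0241). Rdh11, a retinol dehydrogenase (log2 -0.76), and Mmab, which adenosylates cobalamin (log2 -0.81), were also called lower. Of 13 genes of the isoprenoid branch, which uses prenyl diphosphates for dolichol, ubiquinone and protein prenylation, edgeR called 0 in any of the 3 comparisons. Over all genes tested it called 0.0362% in LysM-DKO against WT, 16% in ABCG1KO against WT and 13.4% between the knockouts. At an unadjusted p under 0.05, 1 of the 13 differed in LysM-DKO against WT, 3 in ABCG1KO against WT and 5 between the knockouts. The share of all genes at that limit in either direction was not computed, so these counts have no background beside them.

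Of 10 tested regulators of the degradation of pathway proteins, 2 were called lower and 3 higher in ABCG1KO against WT, beside 8.83% and 7.21% of all genes tested. Syvn1, a ubiquitin ligase of the endoplasmic reticulum, was at 83.4 to 89.0 CPM in WT and at 48.9 and 39.2 CPM in ABCG1KO (log2 -0.98, SE 0.14, adjusted p = 0.00345). Vcp, the ATPase that extracts ubiquitinated proteins, was lower (log2 -1.37), with 40.5% of its sequence shared with other loci. Mylip, a sterol-induced ligase, was higher (log2 1.89, adjusted p = 0.00468), as were Rnf145 (1.00) and Erlin1 (0.56). Of 8 LXR targets, the genes that answer to oxysterols, 3 were called higher (Apoc1, Arl4c and Mylip) and 1 lower, Abcg1 itself, beside 7.21% and 8.83% of all genes. Of 8 genes of the SREBP1 fatty acid list, 1 was called higher (Elovl5, log2 0.64) and 0 lower, which is near the 16% of all genes called in either direction.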

How the data were processed

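The authors deposited raw htseq-count counts, with 1 value per gene symbol in a file for each library, which the counter's own summary lines identify. The submitters' processing notes name STAR 2.7.9a, TopHat, HTSeq 0.11.2, DESeq2 1.30.1, limma and mm10, without their roles or order. Summary lines for reads in no gene, in several genes or at several loci entered neither the library sizes nor the tests. Such reads made up 4.26% to 6.07% (no gene), 0.873% to 0.980% (several genes) and 2.65% to 3.01% (several loci) of counted reads in WT and LysM-DKO libraries.

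The counts were fitted in R 4.3.3 (edgeR 4.0.16). Genes passed filterByExpr, were scaled with TMM factors and entered 1 quasi-likelihood model of all 8 libraries with a term per group. Benjamini-Hochberg adjustment ran over 13821 genes, called under 0.05. The fit was tested on simulated data. It recovered 20.8% of genes changed 2-fold in LysM-DKO against WT and 5.76% in ABCG1KO against WT. Of genes changed 4-fold it recovered 72.5% and 69.3%, with 3 to 8 false calls per simulation. DESeq2 1.42.0, other scalings and filters, a replicate block, a fit of the 2 groups compared and leaving out each library were alternatives. Shared sequence was the share of 50-base stretches of GENCODE M21 transcripts found at another locus, and 98.2% of symbols matched. Correlations used log2 CPM with a prior count of 2.

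The listed genes and all gene lists were chosen with earlier results of these data known. All 30 listed genes may be named. Values per library are given for genes called in any comparison, for the 6 control genes, and for the 3 largest and 3 smallest differences in LysM-DKO. From each further list at most 5 genes are named, called genes first, and some of its genes are not reported here. Others named for their values were chosen after these were seen. No counting interval is given for CPM values, since libraries of a group differed by more than counting error.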

Additional observations from a re-analysis of the deposited data

Results flagged for a closer look

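Reads outside annotated genes made up 13.8% of counted reads in ABCG1KO 1, above the WT range of 4.26% to 5.88%. In ABCG1KO 2 they made up 10.2%. Reads aligned to several loci made up 6.93% in ABCG1KO 1, above the WT range of 2.83% to 3.00%. In ABCG1KO 2 they made up 6.74%. These reads enter no comparison.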

How the results depend on the processing

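For LysM-DKO against WT, the genes called over all genes tested numbered 5, and were 301 with DESeq2, 3 with at least 10 counts in every library, 8 with only these groups and 0 with a replicate block. DESeq2 called 1 listed gene. Leaving out a library gave 0 to 8 genes, 0 listed genes and medians of -0.42 to -0.20. For ABCG1KO against WT (2216 genes), the counts were 1456 with the replicate block, 1447 among genes under 5% shared sequence and 1235 under 1%, where 7 listed genes were called. Leaving out a library gave 853 to 2090 genes, 6 to 15 listed genes and medians of -0.85 to -0.53. For LysM-DKO against ABCG1KO (1853 genes), they were 2982 with DESeq2, 948 with only these groups, 1024 with the block, 1124 under 5% and 946 under 1%. The listed genes called were 13 with DESeq2, 5 with only these groups, 4 with the block and 4 under 1% (median 0.40). Leaving out a library gave 561 to 1960 genes, 0 to 9 listed genes and medians of 0.42 to 0.56. The number of genes with an r of at least 0.8 was 12 to 22 of 30 when a library was left out, over 5 libraries each time. The causes were not tested.

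With library size only, the median of all genes moved to 0.17, 0.25 and -0.06 in the 3 comparisons, and the sign turned for Hsd17b7 (0.10), Insig2 (0.037) and Srebf2 (0.059) in LysM-DKO and for Pmvk (0.017), Insig1 (0.21) and Insig2 (0.13) in ABCG1KO. When a library was left out, it turned for Hsd17b7 (-0.53 to 0.17), Aacs (-0.39 to 0.037), Lbr (-0.032 to 0.33) and Hmgcs1 (-0.33 to 0.0033) in LysM-DKO and for Insig1 (-0.11 to 0.14) and Pmvk (-0.64 to 0.098) in ABCG1KO. None of these was called. Whether replicate numbers pair the libraries could not be decided from so few libraries. Correlations of deviations between WT and LysM-DKO libraries were 0.041, 0.426 and -0.014 for equal numbers and -0.29 to 0.23 for unequal numbers. Reads in no gene made up 4.26%, 5.73% and 5.88% in WT 1 to 3 and 4.33%, 5.93% and 6.07% in LysM-DKO 1 to 3. With 2 ABCG1KO libraries, leaving 1 out assumes that the other varies like the other groups. The limits of under 5% shared sequence and the correlation without WT 1 were chosen after seeing the data.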
